A study of Mus musculus with 2 samples.

Results

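A subset of brain microglia from Irf8 knockout mice carried the transcripts Fxyd5, Cd72, Runx3, Lgals1, Scimp, Lilrb4a, Cst7 and Pilrb2 (set A) and few of Cox6a2, Clec12a, G0s2, Cp, Igf1, Reps2, Mrc1 and Gpr65 (set B). A cell belonged to it when the number of set A genes with at least 1 UMI (unique molecular identifier, the tag on a captured mRNA molecule) exceeded the number of set B genes by 2 or more. The rule was applied to IRF8KO barcodes with 2000 to 6000 UMIs, at most 10% of UMIs from mitochondrial genes and under 2% from the neutrophil genes Camp, Ngp, S100a8, S100a9, Lcn2 and Ltf. It selected 569 of 3996 such cells (14.2%, exact binomial interval 13.2 to 15.4) among 8807 barcodes in all. These cells are called A-state cells below. The 1814 cells with the difference reversed by 2 or more (45.4%) are called opposite-state cells, and the 1613 cells between them intermediate cells. The measured levels of the 16 genes chose the cells, so those levels describe the rule and are not findings.

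The study compared microglia of wild-type (WT) mice with microglia lacking IRF8, a transcription factor of myeloid cells. Cells came from C57BL/6 female mice aged 3 months, were pooled from 3 mice per genotype, isolated without enzymes, sorted by flow cytometry and measured by single-cell RNA sequencing. The WT group carried no allele named in the labels, and the knockout allele of the other group is not named either. Each group was 1 library from 1 pool, which leaves no replicate and no test between genotypes. The sample titled IRF8KO has a genotype entry that reads WT. It is therefore the library labelled IRF8KO, shortened to IRF8KO below.

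Microglia are the resident macrophages of the brain and in health express a homeostatic set of genes such as P2ry12, Sall1 and Cx3cr1. In injury, ageing and neurodegeneration they can enter an activated, disease-associated (DAM) state with lower homeostatic transcripts and higher lipid, lysosomal and lectin-receptor transcripts. Of the genes that define set A, Cst7 encodes cystatin F, a protease inhibitor of DAM, Lgals1 encodes galectin-1, a lectin that binds sugars on glycoproteins, and Cd72 and Lilrb4a encode inhibitory receptors. Runx3 is a transcription factor of lymphoid and myeloid cells, Scimp is an adaptor of antigen-presenting cells, Fxyd5 regulates the sodium pump and Pilrb2 belongs to the paired receptors. Of set B, Mrc1 is the mannose receptor of border macrophages, Clec12a an inhibitory lectin receptor, Igf1 a growth factor and Cp the iron oxidase ceruloplasmin.

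The A-state cells held 1988006 UMIs, the opposite-state cells 5483660, the intermediate cells 5115587 and the 2356 WT cells that passed the same filters 7706157. The median cell had 3336 UMIs and 1492 genes in the A state, 2782 and 1342 in the opposite state, 2967 and 1385 in intermediate cells, and 3046.5 and 1618 in WT. Median ribosomal protein UMIs were 16.4%, 12.5%, 14.7% and 6.57% in the same order, and median mitochondrial UMIs 4.29%, 3.47%, 3.96% and 2.08%. The libraries shared 5 barcodes, of which none was an A-state or opposite-state cell. Irf8 mRNA, the transcript of the targeted gene, stood at 619 CPM (UMIs scaled to a common total) in A-state cells, 614 in intermediate, 647 in opposite-state and 720 in WT cells. The log2 ratio of A-state to opposite-state cells was -0.06 (-0.16 to 0.03), and the transcript was present throughout the IRF8KO cells. A count of this mRNA does not show whether protein is made. Unless stated otherwise, levels are UMIs summed over a group and scaled to CPM and intervals are exact at 95%, and they cover counting error only.

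The 8 set A genes differed by construction. Fxyd5 stood at 542 CPM in A-state cells, 266 in intermediate, 56.7 in opposite-state and 18.7 in WT cells. Lgals1 stood at 232, 97.2, 29.0 and 4.28 CPM, Cst7 at 278, 157, 58.7 and 7.53, and Cd72 at 131, 60.4, 9.12 and 6.10 CPM in the same order. Intermediate cells lay between the others for each of these, and WT cells were lowest. Of the A-state cells, 268 had a Lgals1 UMI (47.1%), 330 a Cst7 UMI (58.0%) and 197 a Cd72 UMI (34.6%). All 3 were seen in 57 cells (10.0%), and none of the 3 in 75 (13.2%). Detection of these genes was part of the rule, and at this depth a cell can express a gene and show no UMI. With each cell thinned to 2000 UMIs, Cst7 was seen in 40.2% of A-state and 9.26% of opposite-state cells, against 1.03% of the 97 neutrophil-like barcodes, whose unthinned median was 7140 UMIs.

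**Figure D1:**
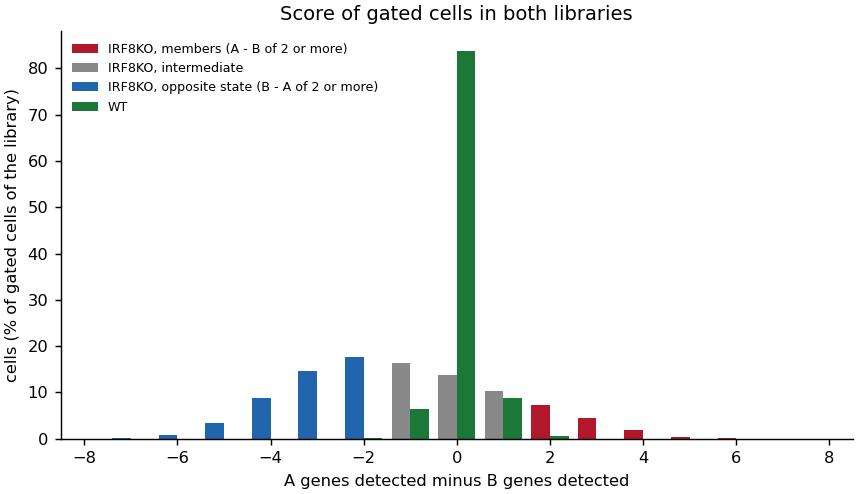
Percent of the gated cells of each library (y axis) by the difference between set A and set B genes detected (x axis, genes), in IRF8KO and WT cells of 2000 to 6000 UMIs. IRF8KO cells spread from -7 to 6 with 1 peak at -2 (702 cells), while 1975 of the 2356 WT cells sit at 0.

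The difference formed a single broad distribution in IRF8KO cells, with 702 cells at -2, 549 at 0, 414 at 1, 295 at 2, 183 at 3 and 91 at 4 or more. The A-state is therefore a range of a score, with 414 cells just outside the limit and 295 just inside. After thinning every cell to 2000 UMIs the rule selected 440 cells (11.01%), of which 356 had been selected before, 62.6% of the original and 80.9% of the new group. In WT cells the same rule selected 16 of 2356 (0.679%, 0.389 to 1.10).

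To show each of the 16 genes in cells chosen without it, the rule was repeated on the other 15. Fxyd5 then stood at 488 CPM against 105 in opposite-state cells, a log2 ratio of 2.22 (2.05 to 2.38). Cd72 stood at 82.3 against 20.2 CPM (2.03), Lgals1 at 143 against 49.5 (1.53) and Cst7 at 217 against 91.4 (1.24). All 8 set A genes stayed higher in cells chosen by the others, from 1.24 to 2.22 on the log2 scale, and all 8 set B genes lower, from -1.61 for G0s2 to -0.43 for Gpr65. The 16 genes were themselves picked on these cells, so this describes how they go together and is not a test.

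**Figure D2:**
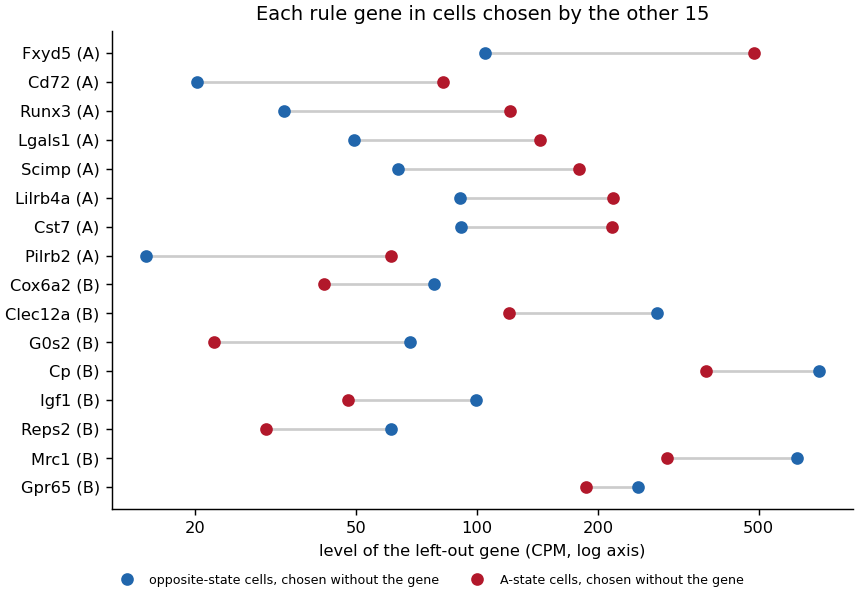
Level of each of the 16 rule genes (x axis, CPM, log scale) in A-state (red) and opposite-state (blue) cells chosen by the remaining 15 genes. Red lies to the right of blue for all 8 set A genes and to the left for all 8 set B genes.

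Promoter sequences are shown for 4 genes high in A-state cells whose start sites hold matches to motifs of macrophage transcription factors: the rule genes Cd72 and Cst7, and Emp1 and Fcgr4, which the rule did not use. Each window runs from 250 bases before to 50 bases after the annotated start, from RefSeq on GRCm38.p6, written 5′ to 3′ on the gene's strand with motif matches in capitals. Cd72 is at chr4:43454577-43454876 on the minus strand, Cst7 at chr2:150570165-150570464, Emp1 at chr6:135362681-135362980 and Fcgr4 at chr1:171018676-171018975, these 3 on the plus strand.
Cd72: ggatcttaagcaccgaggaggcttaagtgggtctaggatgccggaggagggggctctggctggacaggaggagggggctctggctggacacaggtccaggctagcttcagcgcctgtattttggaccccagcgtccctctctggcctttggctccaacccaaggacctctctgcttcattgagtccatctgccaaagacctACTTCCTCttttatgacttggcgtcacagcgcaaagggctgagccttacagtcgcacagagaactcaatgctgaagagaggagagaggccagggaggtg
Cst7: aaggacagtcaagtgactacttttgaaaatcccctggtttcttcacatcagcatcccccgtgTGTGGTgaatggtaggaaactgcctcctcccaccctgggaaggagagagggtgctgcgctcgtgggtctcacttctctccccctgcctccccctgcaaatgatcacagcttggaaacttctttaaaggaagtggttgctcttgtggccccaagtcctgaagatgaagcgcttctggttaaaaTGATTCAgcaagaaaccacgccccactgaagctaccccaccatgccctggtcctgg
Emp1: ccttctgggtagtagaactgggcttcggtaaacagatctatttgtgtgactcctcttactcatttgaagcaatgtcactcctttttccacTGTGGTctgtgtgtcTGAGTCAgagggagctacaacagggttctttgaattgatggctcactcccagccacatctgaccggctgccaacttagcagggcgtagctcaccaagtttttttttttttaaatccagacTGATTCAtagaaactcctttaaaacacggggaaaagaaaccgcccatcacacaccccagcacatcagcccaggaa
Fcgr4: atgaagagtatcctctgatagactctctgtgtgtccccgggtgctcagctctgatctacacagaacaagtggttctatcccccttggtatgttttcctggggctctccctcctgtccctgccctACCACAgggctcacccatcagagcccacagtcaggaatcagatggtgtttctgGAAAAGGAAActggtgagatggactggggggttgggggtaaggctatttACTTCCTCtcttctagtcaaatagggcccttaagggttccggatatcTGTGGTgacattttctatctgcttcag
The capitals in Cd72 match PU.1 (GAGGAAGT, on the reverse strand) at base 202. In Cst7 they match RUNX (TGTGGT) at base 63 and AP-1 (TGANTCA) at base 245. Emp1 has RUNX at base 91 and AP-1 at bases 106 and 226, and its other annotated start has no match. Fcgr4 has RUNX at bases 125 and 274, the core of the interferon-stimulated response element (ISRE, TTTC and TTTC with 2 bases between) at base 178 and PU.1 at base 227. The E-box CACGTG and the NF-kB motif (GGGA and TCC with 3 bases between) were searched as well, all on both strands. RUNX matched 5 of 13 windows of the genes highest in A-state cells, 3 of 13 windows of the genes lowest there and 16.8% of 32851 promoter windows of all genes. In the same order, ISRE matched 3, 0 and 3.44%, AP-1 2, 0 and 7.81%, PU.1 2, 0 and 3.20%, E-box 1, 2 and 7.15%, and NF-kB 2, 3 and 4.59%. By genes, RUNX matched 4 high and 2 low genes, and NF-kB 2 and 2, since 2 overlapping windows of Pmp22 hold the same NF-kB site. E-box and NF-kB were thus no more frequent among the genes high in A-state cells than among the low ones. Each set of 13 windows covers 10 of 14 named genes, and a match is a description of letters, not evidence of binding.

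Outside the 16 genes, most genes differed little between A-state and opposite-state cells of the same library. Of 8369 genes with at least 10 CPM in either state, 148 (1.77%) were over 2-fold higher and 123 (1.47%) over 2-fold lower in A-state cells. The median log2 ratio was -0.07, with 90% of genes between -0.64 and 0.57, and 41.7% of genes lay above 0. Under a minimum of 50 CPM the counts were 41 and 23, so most genes past 2-fold were low. The cells were chosen on transcripts that may vary together with these, so the counts describe the 2 states and carry no test. Genes were named by a rule on the size of the ratio at 50 CPM or more.

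**Figure D3:**
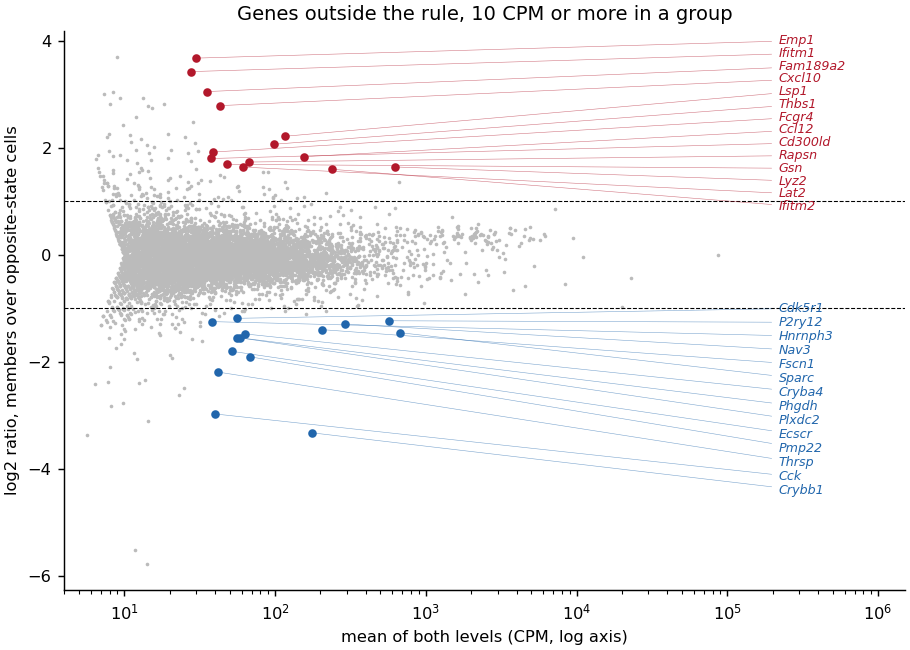
Log2 ratio of A-state cells (members) over opposite-state cells (y axis) against the mean level of both (x axis, CPM, log scale) for genes outside the rule, with the 14 highest (red) and 14 lowest (blue) named genes. Most genes lie between the dashed lines at 2-fold, and Crybb1 (-3.32) and Emp1 (3.67) stand far from the bulk.

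The gene with the highest ratio was Emp1, an epithelial membrane protein of the cell surface (chromosome 6, 135362545 to 135383173, plus strand). It stood at 55.8 CPM in A-state cells, 23.1 in intermediate, 4.38 in opposite-state and 0.389 in WT cells, a log2 ratio to opposite-state cells of 3.67 (3.03 to 4.37). In cells thinned to 2000 UMIs, Emp1 was seen in 9.14% of A-state, 0.827% of opposite-state and 0.0424% of WT cells. At this level most cells are expected to show no UMI, so these shares do not tell how many cells express it.

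Fcgr4, an activating Fc receptor for IgG, stood at 61.4 CPM in A-state, 40.3 in intermediate, 16.2 in opposite-state and 15.96 in WT cells (1.92 against opposite-state). Cd300ld, a receptor of the CD300 family, stood at 58.4, 51.4, 16.8 and 0.130 CPM (1.80). Fam189a2, a membrane protein, stood at 63.4, 35.0, 7.66 and 0 CPM (3.05, 2.53 to 3.59). Of these 3, Fcgr4 alone had opposite-state and WT levels next to each other.

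Ifitm1 and Ifitm2, interferon-induced membrane proteins that restrict viral entry, were both higher. Ifitm2 stood at 360 CPM in A-state, 226 in intermediate, 119 in opposite-state and 1.43 in WT cells (1.60, 1.44 to 1.75). Ifitm1 stood at 50.8, 19.5, 4.74 and 0 CPM (3.42, 2.79 to 4.10), and 10 cells held 52.5% of its UMIs in the A state. The genes lie near each other on chromosome 7 (140954837 to 140955987 and 140967221 to 140969825), belong to 1 family and may share reads.

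Lsp1, a leukocyte protein that binds actin, stood at 191 CPM in A-state, 114 in intermediate, 41.2 in opposite-state and 75.9 in WT cells (2.21, 1.97 to 2.46). Gsn, gelsolin, which severs actin filaments, stood at 72.9, 56.3, 22.6 and 2.08 CPM (1.69). Thbs1, thrombospondin-1 of the extracellular matrix, stood at 159, 95.4, 38.1 and 7.79 CPM (2.06, 1.81 to 2.32). Lyz2, the macrophage and neutrophil lysozyme, stood at 943, 710, 302 and 225 CPM (1.64, 1.54 to 1.74). Neutrophil-like barcodes held Lyz2 at 12935 CPM, Lsp1 at 228 CPM and Gsn at 254 CPM. Of the neutrophil genes that the rule capped in both states, S100a8 had 29 UMIs in A-state and 92 in opposite-state cells (-0.20, -0.86 to 0.41) and S100a9 43 and 133 (-0.17, -0.70 to 0.34). The part of free neutrophil RNA in Lyz2, Lsp1 and Gsn was not tested. The named set was completed by Rapsn (1.73), which clusters receptors at synapses, Lat2 (1.64), an adaptor of immune receptors, and the chemokines Ccl12 and Cxcl10.

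Of these chemokines, Cxcl10 was carried by few cells. Ccl12 kept 174 A-state and 187 opposite-state UMIs without the 10 highest cells of each group. Cxcl10 stood at 75.5 CPM in A-state and 10.9 in opposite-state cells (2.79), but 10 cells held all of its A-state UMIs, and it was seen in 0.527% and 0.496% of thinned cells. In cells of 2000 to 3500 UMIs its log2 ratio was -0.79. Ccl12 stood at 243, 150, 68.4 and 69.8 CPM in A-state, intermediate, opposite-state and WT cells (1.83), and was 1.38 without the 10 highest cells.

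The lowest ratio among named genes was that of Crybb1, a crystallin found in homeostatic and developing microglia (chromosome 5, 112255815 to 112269585, plus strand). It stood at 31.7 CPM in A-state, 108 in intermediate, 317 in opposite-state and 455 in WT cells, a log2 ratio to opposite-state cells of -3.32 (-3.71 to -2.96). In thinned cells it was seen in 5.62% of A-state, 39.3% of opposite-state and 53.4% of WT cells, and in 2.06% of neutrophil-like barcodes. Cryba4, a crystallin whose gene lies next to it (112246493 to 112252518, minus strand), stood at 33.2, 55.1, 92.5 and 65.8 CPM (-1.48). Unlike Crybb1, Cryba4 was higher in opposite-state than in WT cells.

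P2ry12, the ADP receptor of homeostatic microglia, stood at 340 CPM in A-state, 543 in intermediate, 799 in opposite-state and 3670 in WT cells (-1.23, -1.35 to -1.12). Sparc, a secreted matrix protein of microglia, stood at 363, 595, 995 and 3224 CPM (-1.46, -1.57 to -1.34). Both had the lowest level in A-state cells, although most of the difference from WT was shared with opposite-state cells. Plxdc2, Pmp22 and Ecscr had the same order, from 23.1 to 29.7 CPM in A-state, 80.8 to 107 in opposite-state and 326 to 937 in WT cells. Fscn1, which bundles actin, stood at 113, 184, 297 and 488 CPM (-1.40). Within the cytoskeletal genes, Fscn1 was thus lower while Lsp1 and Gsn were higher in A-state cells.

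Of the other low genes, Cck and Nav3 were higher in opposite-state than in WT cells. Cck, the neuropeptide cholecystokinin, stood at 9.05 CPM in A-state, 34.2 in intermediate, 71.1 in opposite-state and 0.389 in WT cells (-2.97), highest in opposite-state cells. Nav3 (-1.29) stood at 168 CPM in A-state, 411 in opposite-state and 367 in WT cells. Thrsp (-2.19), linked to lipid synthesis, Phgdh (-1.55), the entry enzyme of serine synthesis, Cdk5r1 (-1.19), an activator of the kinase CDK5, and Hnrnph3 (-1.25), an RNA-binding protein, completed the set.

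**Figure D4:**
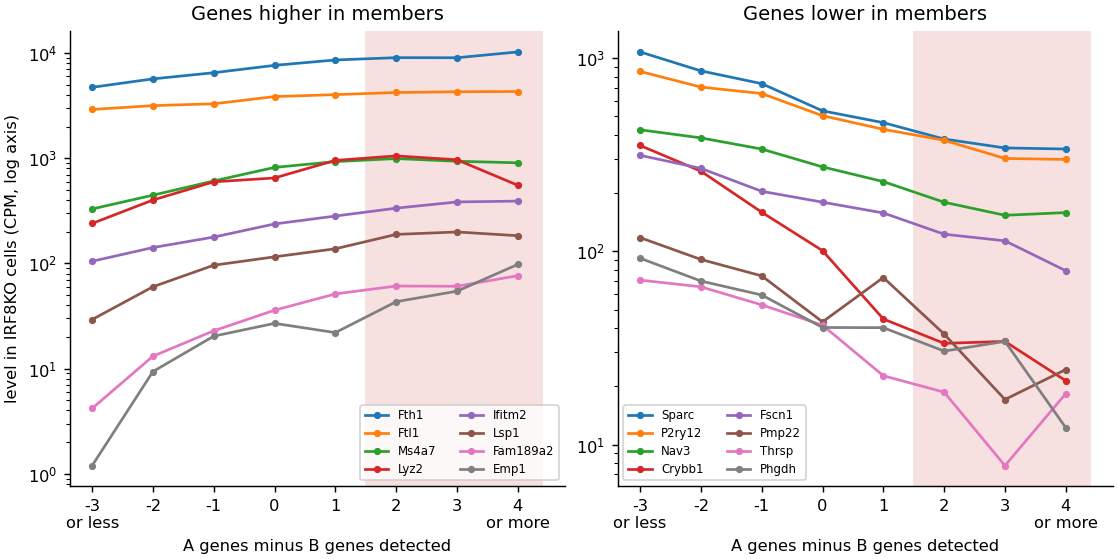
Level of named genes (y axis, CPM, log scale) in IRF8KO cells grouped by the difference between set A and set B genes detected (x axis), with the A-state (members) shaded. Fth1 climbs from 4724 to 10249 CPM and Crybb1 declines from 354 to 21.4 CPM from the lowest to the highest group.

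The named genes, chosen for their difference between the ends of this score, were also followed along it. Crybb1 stood at 354 CPM in cells at -3 or less, 260 at -2, 160 at -1, 101 at 0, 44.7 at 1, 33.4 at 2, 34.2 at 3 and 21.4 at 4 or more. Emp1 stood at 1.19 CPM at the lowest and 97.8 CPM at the highest scores. Just outside the limit, at 1, and just inside it, at 2, Emp1 stood at 22.0 and 43.2 CPM, Sparc at 464 and 382, and Lgals1 at 148 and 234 CPM. Of the 14 high genes 13, and of the 14 low genes 13, lay further in their direction at 2 than at 1. From 2 to 4 or more the high genes split, with 7 of 14 further in their direction, beside 12 of 14 low genes, and 1 high and 4 low genes moved the same way at every step. The median depth of these groups also went from 2774.5 to 3475 UMIs, and the median ribosomal protein share from 12.1% to 17.7%. With opposite-state cells weighted to the depth of A-state cells, 141 genes were over 2-fold higher and 106 lower.

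**Figure D5:**
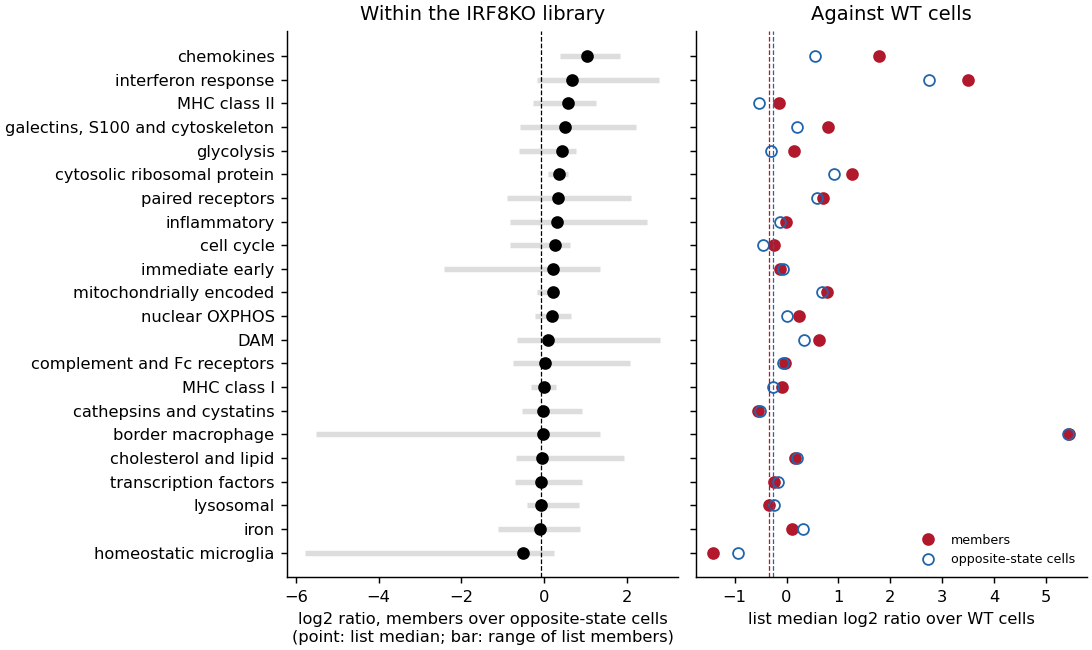
Median log2 ratio of each gene list (x axis) in A-state cells (members) against opposite-state cells, with grey bars for the range over list genes, and of both states against WT cells, with dashed lines at the medians of all genes. Chemokine (1.05) and interferon response (0.68) lists lie highest against opposite-state cells and the homeostatic list (-0.51) lowest.

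Homeostatic genes were lower as a group. Of 28 measured list genes, 26 were lower in A-state than in opposite-state cells, 5 of them over 2-fold, with a median log2 ratio of -0.51 beside -0.07 for all genes, of which 41.7% were higher and 1.47% over 2-fold lower. The list took 4.20% of UMIs in A-state, 4.94% in intermediate, 6.30% in opposite-state and 12.4% in WT cells. Adgrg1, an adhesion receptor of yolk-sac derived microglia, had 1 UMI in all A-state cells (0.503 CPM) against 27.7 CPM in opposite-state and 301 CPM in WT cells. It reached the 10 CPM minimum in opposite-state but not in A-state cells. Cx3cr1, the fractalkine receptor, stood at 1843 CPM in A-state, 2614 in opposite-state and 4540 in WT cells (-0.50 against opposite-state). Tmem119 and C1qb were the exceptions, with Tmem119 at 919 CPM in A-state, 784 in opposite-state and 1376 in WT cells (0.23).

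The DAM list had a median of 0.09, with 11 of 19 measured genes higher and 8 lower, beside 41.7% higher of all genes. Past 2-fold were Gpnmb (2.81), Itgax (2.79), Axl (2.20), Lyz2 (1.64) and Cd52 (1.58), a short surface glycoprotein. Itgax, the integrin CD11c, stood at 25.2 CPM in A-state, 9.38 in intermediate, 3.65 in opposite-state and 4.93 in WT cells. Gpnmb, a lysosomal glycoprotein, stood at 14.1, 3.71, 2.01 and 0.519 CPM. Gpnmb, Itgax and Axl reached the 10 CPM minimum in A-state cells only. Apoe, the main lipid carrier of the brain, did not follow, at 87101 CPM in A-state, 89601 in intermediate, 87438 in opposite-state and 437 in WT cells. Trem2, the lipid-sensing receptor of microglia, was lower, at 1486 against 1901 CPM (-0.35, -0.41 to -0.30).

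Paired receptors, whose members carry activating or inhibitory signals, had a median of 0.33 with 16 of 18 measured genes higher and 5 over 2-fold, beside 41.7% and 1.77% of all genes. Lilra5 stood at 18.1 CPM in A-state, 12.3 in intermediate, 4.19 in opposite-state and 18.7 in WT cells (2.11). Clec4d, a lectin receptor for mycobacterial glycolipid, stood at 32.7, 18.6, 8.39 and 0 CPM (1.96, 1.40 to 2.54). Clec4a1 (1.45) and Cd300lf (1.38) followed. Lilra5, Clec4d and Pirb reached the 10 CPM minimum in A-state but not in opposite-state cells, so they were measured through the state where they are high. Genes of these families lie in clusters of near copies, and reads may have been split between them.

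The list of galectins, S100 proteins, annexins and actin regulators had a median of 0.49, with 23 of 25 measured genes higher and 6 over 2-fold, beside 41.7% and 1.77% of all genes. Vim, vimentin, stood at 41.8 CPM in A-state, 30.7 in intermediate, 9.12 in opposite-state and 4.15 in WT cells (2.19, 1.67 to 2.73). Capg, which caps actin filaments, stood at 41.8, 32.1, 11.1 and 22.5 CPM (1.91). S100a11 (1.82), Anxa1 (1.79) and Anxa5 (1.05) were over 2-fold higher as well, with Anxa5 at 189, 140, 91.0 and 27.5 CPM. Of the genes past 2-fold, Vim, S100a11 and Anxa1 reached the 10 CPM minimum in A-state but not in opposite-state cells. These genes were measured through the state where they are high. Against WT cells the list median was 0.80 in A-state and 0.20 in opposite-state cells.

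All 10 measured chemokine genes were higher in A-state cells, 5 over 2-fold, with a median of 1.05, where 41.7% of all genes were higher and 1.77% over 2-fold. Besides Ccl12, Ccl4 stood at 135 CPM in A-state, 44.4 in intermediate, 46.1 in opposite-state and 112 in WT cells (1.55), and Ccl3 at 80.5, 51.8, 32.8 and 49.96 CPM (1.29). In the A state 10 cells held 80.4% of Ccl3 and Ccl4 UMIs, and 8.26% of thinned cells had 1, beside 4.47% of opposite-state cells. Cxcl16, a membrane-bound chemokine, stood at 169, 140, 70.9 and 50.5 CPM (1.25, 1.04 to 1.47). Inflammatory genes had a median of 0.30, with 13 of 20 higher beside 41.7% of all genes, and a median of -0.14 at a minimum of 50 CPM. Il1b, the cytokine interleukin-1 beta, stood at 48.8 CPM in A-state, 33.0 in intermediate, 8.75 in opposite-state and 5.19 in WT cells (2.48, 1.97 to 3.01). The chemokines Ccl2 and Cxcl1 and the inflammatory genes Il1b and Tnfaip2 reached the 10 CPM minimum in A-state but not in opposite-state cells. These genes were measured through the state where they are high. Tlr7, a sensor of single-stranded RNA, was lower at 101 against 179 CPM (-0.82).

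The interferon response list had a median of 0.68, with 26 of 29 measured genes higher and 7 over 2-fold, beside 41.7% and 1.77% of all genes, among them Cxcl10 (2.79), Oasl1 (1.52), Isg20 (1.46) and Ifitm3 (1.34). Cells with over 1% of UMIs in the list numbered 16 of 569 in the A state (2.81%), 28 of 1814 in the opposite state (1.54%) and 1 of 2356 in WT. Without such cells the list median was 0.34. Without the 10 cells of most UMIs in each group, Oasl1 was at 0.75 and Isg20 at 0.31. Of the genes past 2-fold, Oasl1, Isg20, Oas3 and Phf11d reached the 10 CPM minimum in A-state but not in opposite-state cells, as did Cmpk2. These genes were measured through the state where they are high. The class II antigen presentation list had a median of 0.56, with 5 of 7 measured genes higher beside 41.7% of all genes. That median is the value of H2-Eb1, whose interval held 0 (-0.05 to 1.16). H2-DMa, at 12.1 against 8.75 CPM, reached the 10 CPM minimum in A-state cells only. Cd74, the class II chaperone, stood at 127 CPM in A-state, 75.1 in intermediate, 54.0 in opposite-state and 33.7 in WT cells (1.24). Of the H2-Aa, H2-Ab1 and H2-Eb1 UMIs of A-state cells, 97.1% were in 10 cells, and 2.11% of thinned A-state cells had 1. In opposite-state cells 10 cells held 94.5% of them. Class I genes had a median of 0.01.

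The ferritin genes, which store iron, were among the most abundant genes that differed. Fth1, the heavy chain, stood at 9237 CPM in A-state, 7458 in intermediate, 5097 in opposite-state and 2653 in WT cells (0.86, 0.83 to 0.88). Ftl1, the light chain, stood at 4255, 3684, 3008 and 1515 CPM (0.50, 0.46 to 0.54). Slc40a1, the iron exporter ferroportin, was opposite, at 102, 133, 219 and 176 CPM (-1.11, -1.33 to -0.89), and Nupr1, a stress-response factor, stood at 76.0 against 157 CPM (-1.05). The whole iron list of 11 measured genes had a median of -0.09, with 5 genes higher and 6 lower. This lay near all genes, with a median of -0.07 and 41.7% higher. Cp, the ceruloplasmin that works with ferroportin, is a set B gene and was low by the rule.

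Glycolysis genes had a median of 0.42, with 11 of 17 higher, beside 41.7% of all genes. None was past 2-fold, where 1.77% of all genes were over 2-fold higher and 1.47% lower. Slc16a3, among the 11 higher genes, stood at 11.6 against 7.48 CPM and reached the 10 CPM minimum in A-state cells only. Gapdh stood at 718 CPM in A-state, 588 in intermediate, 423 in opposite-state and 367 in WT cells (0.76, 0.67 to 0.86). Aldoa (0.75) and Ldha (0.66) were next. Ribosomal protein genes were higher by a similar size, with a median of 0.35 and all 80 measured genes higher, taking 13% of UMIs in opposite-state, 16.6% in A-state and 6.84% in WT cells. Nuclear genes of oxidative phosphorylation had a median of 0.19 with 67 of 75 higher, and mitochondrially encoded genes 0.20. CPM are relative, so a larger share in these lists leaves a smaller one for other genes. With totals taken without mitochondrial and ribosomal protein genes, the median of all genes was 0.01 and 186 genes were over 2-fold higher and 123 lower.

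The medians of the cathepsin, lysosomal and lipid lists lay near that of all genes (-0.07), with single genes apart in both directions. Cathepsins and cystatins had a median of -0.02 (0.03 under TMM scaling), with Ctsd, the aspartic protease cathepsin D, at 6798 CPM in A-state, 7793 in intermediate, 9937 in opposite-state and 7395 in WT cells (-0.55, -0.57 to -0.52). Ctsh, a cysteine protease, stood at 54.3, 46.5, 28.8 and 885 CPM (0.91). The lysosomal list had a median of -0.09, with 9 of 24 genes higher, near the 41.7% of all genes. Among the higher genes were the macrophage glycoprotein Cd68 (0.84) and the tetraspanin Cd63 (0.53, at 1417 against 984 CPM). Cholesterol and lipid genes had a median of -0.06. Msr1, a scavenger receptor, stood at 48.8 CPM in A-state, 30.1 in intermediate, 12.8 in opposite-state and 1.17 in WT cells (1.93), while Apoc1, an apolipoprotein, was lower at 2925 against 4626 CPM (-0.66).

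The transcription factor list had a median of -0.08 (0.00 with totals taken without mitochondrial and ribosomal protein genes), near the -0.07 of all genes. None of 27 was past 2-fold, where 1.77% of all genes were over 2-fold higher and 1.47% lower. The list thus did not stand apart from all genes. Batf, an AP-1 factor, was highest (0.91, at 14.1 against 7.48 CPM), and Tfeb (-0.71) and Mef2a (-0.69) lowest. Batf reached the 10 CPM minimum in A-state but not in opposite-state cells, so it was measured through the state where it is high. Immediate early genes had a median of 0.22, with Rgs1, a regulator of G-protein signalling, at 169 against 66.0 CPM (1.35) and Egr1 at 2.01 against 10.8 CPM (-2.42). Egr1 reached the 10 CPM minimum in opposite-state cells only, the state where it is high. Egr1 rested on few cells, since leaving out the 10 cells of most UMIs in each group left it 0 UMIs in A-state and 4 in opposite-state cells. Complement and Fc receptor genes had a median of 0.03, with Cfp, properdin of the alternative complement pathway, at 47.8, 28.7, 11.3 and 1.17 CPM in A-state, intermediate, opposite-state and WT cells (2.08, 1.60 to 2.57). The cell cycle list had 9 measured genes and a median of 0.27.

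The border macrophage list, genes of macrophages of the meninges and vessels, had 11 of 19 genes at 10 CPM or more, with a median of -0.04 against opposite-state cells (0.02 under TMM scaling, which scales to genes of middling change). Against WT the median was 5.43, beside 5.42 for opposite-state cells, over genes most of which reached 10 CPM through the IRF8KO cells. Among the genes under the minimum, Lyve1, Folr2 and Cd209f had no UMI in A-state cells, Cbr2 had 2, Cd163 6 and F13a1 14. Ms4a7, a membrane protein of border macrophages, stood at 960 CPM in A-state, 767 in intermediate, 375 in opposite-state and 0 in WT cells (1.36 against opposite-state, 1.27 to 1.45). It was seen in 72.1% of thinned A-state, 35.2% of opposite-state and 4.12% of neutrophil-like cells. Cd38, an enzyme that consumes NAD, had 1 UMI in A-state cells against 22.98 CPM in opposite-state cells (-5.51). Cd38 reached the 10 CPM minimum in opposite-state but not in A-state cells, so it was measured through the state where it is high. Among list genes at that minimum in both states, Ms4a7 was higher and Ccl24 (-1.30) lower in A-state cells.

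Compared with WT cells, 571 of 8861 genes (6.44%) were over 2-fold higher in A-state cells and 1165 (13.1%) over 2-fold lower. Opposite-state cells, measured against the same WT cells, had 417 (4.75%) and 773 (8.81%) of 8777. Genotype, library and state cannot be told apart in this comparison. The median of all genes was -0.33, and TMM scaling moved it by 0.28 to -0.05, with counts of 756 higher and 708 lower. With totals taken without mitochondrial and ribosomal protein genes the counts were 732 and 827. The excess of low genes was thus smaller there and was absent under TMM, so its size depends on the scaling.

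The genes highest against WT were high in both IRF8KO states. Pf4, a platelet and macrophage chemokine, stood at 1858 CPM in A-state, 1604 in intermediate, 1133 in opposite-state and 0.130 in WT cells, where it had 1 UMI. Its log2 ratio was 13.81 (11.33 to 19.11) in A-state and 13.09 in opposite-state cells. Ms4a7, with no WT UMI, was at least 2465-fold higher in A-state cells against a floor of 3 counts over the WT cells. The others were Apoc1 (12.46 in A-state and 13.12 in opposite-state cells), Ccnd2 (10.97 and 10.41), Apoc4 (10.18 and 9.97), Cxcl14 (9.79 and 8.83), Clec4n (9.59 and 8.95) and Stap1 (9.05 and 8.03). Both states share the WT cells in these ratios, so their likeness is no separate result.

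The genes lowest against WT included regulators of microglial identity. Sall1, the transcription factor that maintains microglial identity, had no UMI in A-state cells, 3.28 CPM in opposite-state and 457 CPM in WT cells, at least 303-fold lower than WT. Adgrg1 was at -9.23 in A-state and -3.44 in opposite-state cells. Ly86, which pairs with the toll-like receptor relative RP105, had 24 UMIs in A-state cells, at -7.41 (-8.05 to -6.83) against -6.12 in opposite-state cells. Atp8a2 (-7.97 and -6.12) and Gatm (-6.95 and -5.61) were low in both, and Csmd3 had no UMI in A-state cells. Dlgap1 and Klk8 had no UMI in either state.

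The labelled cell type was checked on markers of microglia and of other cells in the sort. Summed over 11 microglia markers, A-state cells held 12371 CPM, intermediate cells 14039, opposite-state cells 17487 and WT cells 29741, beside 1960 CPM in neutrophil-like barcodes. All 569 A-state cells carried at least 2 of these markers, at 0.172% to 2.86% of a cell's UMIs, with Sall1 at 0. Of 10 monocyte markers 6 were at 0 in A-state cells, among them Ly6c2, Plac8, Vcan, F10 and Ly6c1, and the list summed to 38.7 CPM beside 6.20 in opposite-state cells, mostly from Ccr2 (41 UMIs) and Fn1 (33 UMIs). Dendritic cell markers summed to 20 UMIs, lymphocyte markers to 7 with 9 of 10 at 0, neutrophil markers outside the rule to 20 with 7 of 8 at 0, and neural, glial and vascular markers to 87. The monocyte sum was thus higher in A-state than in opposite-state cells, and its part in the other differences was not tested.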

How the data were processed

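Each of the 2 libraries was deposited by the authors as whole-number UMI counts per gene and barcode, with Cell Ranger 3.1, bcl2fastq, Scanpy and the mm10 build per the submitters' processing notes. The matrix headers name software version 3.1.0. The labels' extraction text also names a kit for full-length RNA, which is not a droplet method, and the values have droplet form. The members and gene lists were chosen with earlier results of these data known.

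The deposited counts were summed over the cells of each state and scaled to CPM. Ratios used a minimum of 10 CPM in either group, a floor of 3 counts over a group in place of 0, exact conditional binomial intervals, and Clopper-Pearson intervals for shares. No test was possible with 1 library per group, and a gene was called past 2-fold. Named genes were the 14 highest and 14 lowest ratios against opposite-state cells and the 8 highest and 8 lowest against WT, at 50 CPM or more outside the rule genes, the neutrophil filter genes, mitochondrial, ribosomal protein and haemoglobin genes and unnamed gene models, plus up to 3 genes per list and Irf8, Sall1, Apoe and Ms4a7. Other list genes were named after their values were seen. The table lacks 3 of 410 list genes. Shares of cells were taken after thinning each cell to 2000 UMIs. Doublet scores from scanpy 1.11.5 marked 0 WT and 3 IRF8KO cells (0.0588%), below what a functioning caller gives, so no cell was removed; leaving out the 87 and 208 highest-scoring cells was tried. Alternative scaling used TMM from edgeR 4.0.16. Gene positions are from GENCODE M21 on GRCm38, matched for 30934 of 31053 features, and promoters from RefSeq on GRCm38.p6. The computations were run in Python 3.11.15 and tested on simulated data.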

Additional observations from a re-analysis of the deposited data

Results flagged for a closer look

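The cell rule also selected cells outside the depth range in which it was stated, in data that the comparisons above do not use. Among IRF8KO barcodes of over 6000 UMIs, 82 of 513 met the difference of at least 2 between set A and set B genes, or 16% (12.9 to 19.4), beside 40 of 668 WT barcodes (5.99%, 4.31 to 8.07). Among IRF8KO barcodes of 1000 or more but under 2000 UMIs, 20 of 503 met it, or 3.98% (2.45 to 6.07), beside 1 of 285 WT barcodes (0.351%, 0.00888 to 1.94). More genes are detected at greater depth, so these shares are not comparable with the 14.2% within the range. Of the 97 neutrophil-like barcodes, 3 met it (3.09%).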

How the results depend on the processing

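No paired analysis was possible because each group is 1 library with no replicates. The number of A-state cells was 983 at a difference of at least 1, 274 at 3, 378 at no more than 5% mitochondrial UMIs and 76 with no set B gene. Against opposite-state cells, 2507 genes were over 2-fold higher and 602 lower with no minimum level, 41 and 23 at 50 CPM and 225 and 301 at a difference of at least 3. With no minimum, the floor of 3 counts in place of 0 made some genes without an A-state UMI count as higher. Cxcl9, with 0 A-state UMIs and 1 opposite-state UMI, came out at 3.05. The 2507 is therefore not a count of genes raised in A-state cells. Genes lower numbered 205 at 2000 to 3500 UMIs and 274 at 3500 to 6000 UMIs. Against WT, 3346 and 1898 genes passed with no minimum level, 270 and 505 at 50 CPM, and TMM left 708 lower. The floor acts on the 3346 in the same way, as for Fosb, with 0 A-state UMIs and a log2 ratio of 2.54.

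Of 286 list medians against opposite-state cells under alternatives, 264 stayed within their interval and 22 moved. The sign changed in 19, all of medians whose interval held 0. Of 1291 gene values 1117 stayed, and 1 whose interval excluded 0 changed sign, Cxcl10 (-0.79 at 2000 to 3500 UMIs). The sign also changed in 15 values of genes whose interval held 0 or whose ratio is a bound, such as Tyms (-0.36 without its 10 highest cells). Against WT, TMM changed the sign for the transcription factor list (0.0477), the cell cycle list (0.0492), Lat2 (0.0081), Irf8 (0.0638), Ctsd (0.161) and Cd68 (0.004), and totals without mitochondrial and ribosomal protein genes that of Ctsd (0.0842). Isg20 was -0.0527 without interferon-responding cells and -0.27 without its 10 highest cells, and H2-Ab1 was -0.21 at 2000 to 3500 UMIs. Ccl4 was -0.45 at 2000 to 3500 UMIs, -0.12 at no more than 5% mitochondrial UMIs, -0.52 without interferon-responding cells, -0.17 with cells weighted by depth and -0.13 without its 10 highest cells. Weighting by depth and leaving out 10 cells were chosen after seeing the data, and the cause of these changes was not tested.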
